A study of Mus musculus with 2 samples.

Results

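The cells described here were the mesothelial cells of a CCl4-injured mouse liver, taken as 1252 of the 8460 cells of the CCl4 library and of the 14757 cells in the whole series. They were chosen by their counts of unique molecular identifiers (UMIs, 1 per captured transcript). A cell needed at least 2000 UMIs with at most 30% of them in mitochondrial genes, at least 4 UMIs of Msln, Upk3b, Upk1b and Lrrn4 together, no UMI of Epcam or Ptprc, and at most 1 UMI of Pecam1 and Cdh5 together. The mesothelial cells made up 14.8% of the library (exact binomial 95% interval 14.05% to 15.57%, counting error only) and 19.05% of its 6573 cells within the limits on depth and mitochondrial UMIs. Before the limits on Epcam, Ptprc, Pecam1 and Cdh5 there were 1320 such cells, and those limits removed 68. The same rule found 228 mesothelial cells among the 6297 cells of the healthy library, or 3.621% (3.173% to 4.112%). The share in each library was set by tissue digestion, gradient and sorting as well as by the liver, so shares were not read as cell abundance.

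Liver cells of Col1a2CreER:Rosa26tdTomato mice on a C57BL/6 background were profiled by droplet single-cell RNA sequencing, with 1 library from healthy and 1 from CCl4-injured animals. Per the study's methods, the injured mice received CCl4, a liver toxin, by intraperitoneal injection 2 times per week for 12 weeks from an age of 8 to 10 weeks, and mice of both sexes were used. Tissue was dissociated with Pronase and Collagenase, cells were enriched on a Nycodenz gradient, and CD45-negative cells were kept by magnetic sorting. Both groups shared the genotype, in which Cre is driven by the Col1a2 promoter and acts only after tamoxifen, so that it can mark cells that express Col1a2. The sources used here state neither the number and sex of the animals in each library nor whether they received tamoxifen. A UMI of a Y-linked gene was found in 1072 of the CCl4 and 180 of the healthy mesothelial cells, and a Xist UMI in 2 and 0. Both samples are named whole liver cells in the labels, while 343 cells of the CCl4 library within the depth limits carried immune transcripts.

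The mesothelium is a single sheet of flattened epithelial cells that covers the liver and lines the peritoneal cavity. It keeps keratins and epithelial junctions beside mesenchymal features such as vimentin and Wt1, and it secretes a lubricating surface layer. During liver injury mesothelial cells are known to be able to lose epithelial features and to take on those of stellate cells and myofibroblasts, the vitamin A-storing and scar-forming cells of the liver. They also release chemokines and acute-phase proteins when the peritoneum is inflamed.

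Against stellate cells, the label held for genes the selection did not use, on a list chosen with earlier results of these data known. Of 20 further mesothelial genes, 19 were high enough to be compared with the 2863 stellate cells of the same library (at least 5 UMIs of Lrat, Reln, Colec11 and Rgs5 together and no UMI of Msln or Upk3b), and 18 were at least 2-fold higher in the mesothelial cells. Calb2, which encodes calretinin, a common mesothelial protein marker, had 0 UMIs in the mesothelial cells of both libraries. The 12 immune marker genes summed to 23.5 CPM (UMIs of a gene scaled to a total of 1000000) in the mesothelial cells and to 18363 CPM in the immune cells. Endothelial markers summed to 41.8 CPM, cholangiocyte markers to 45.4 CPM and erythroid markers to 12.1 CPM. Markers of portal-type fibroblasts were present, at 578 CPM summed with 8 of 10 genes at 10 CPM or more, against 1460 CPM in the fibroblasts and 852 CPM in the healthy mesothelial cells. Of 8 of them compared with stellate cells 5 were higher (Cd34, Clec3b, Entpd2, Fbln2 and Thy1) and 2 lower. Smooth muscle markers summed to 378 CPM, against 1276 CPM in the stellate and 13.4 CPM in the healthy mesothelial cells. Mylk made most of the 378 CPM, and 3 of the 8 genes were at 10 CPM or more. The hepatocyte list summed to 2029 CPM, of which Trf, the iron carrier transferrin, made nearly all, while Alb stood at 11.2 CPM. The 20 further mesothelial genes summed to 12918 CPM in the mesothelial cells and 330 CPM in the stellate cells. They summed to 2717 CPM in the fibroblasts, with 12 of 20 at 10 CPM or more, and to 1945 CPM in the immune cells. Of the 343 immune cells 12 held 4 or more UMIs of the mesothelial selection genes, and of the 306 fibroblasts 23 did. The part of free transcripts and of mixed droplets in these sums was not tested.

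Some of these droplets held stellate transcripts. The 4 stellate marker genes stood at 129 CPM in the mesothelial cells against 2496 CPM in the stellate cells, and 181 mesothelial cells held 2 or more of their UMIs, 92 of them 5 or more. Several results that turn on stellate genes are therefore given with and without these 181 cells. In comparisons with healthy mesothelial cells, the 26 healthy cells with 2 or more such UMIs were then left out as well. No doublet caller was run. The 2 libraries shared 10 cell barcodes, 1 of them in a mesothelial cell, and 20 mesothelial cells held more than 50000 UMIs.

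The limit of 4 marker UMIs cut through a continuous range. The 85 cells with 4 or 5 marker UMIs held 2467 CPM of Slpi, 61.1 CPM of Krt19, 263 CPM of Wt1, 18338 CPM of Saa3 and 2329 CPM of Fn1. The 152 cells just outside, with 2 or 3 marker UMIs, held 2420, 24.5, 225, 20456 and 2748 CPM of the same genes. In the 1167 cells with 6 or more, Slpi was at 8906, Krt19 at 382 and Fn1 at 830 CPM. Cells on either side of the limit were thus close to each other in Slpi, Wt1, Saa3 and Fn1, less so in Krt19, and both lay apart from the rest of the mesothelial cells in Slpi, Krt19 and Fn1.

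The promoters of 4 genes on which the results turn are printed here from RefSeq (build GRCm38.p6), each from 250 bases before to 50 bases after the annotated gene start, 5′ to 3′ on the gene's strand. Upk3b (uroplakin 3b, chr5:136038246-136038545, plus strand) stands for the genes the selection used. Saa3 (serum amyloid A3, chr7:46715627-46715926, minus strand) and Cxcl1 (a neutrophil-attracting chemokine, chr5:90890995-90891294, plus strand) were among the genes highest over the healthy cells, and C3 (complement component 3, chr17:57228087-57228386, minus strand) was near the healthy level. Capitals mark matches on either strand to the NF-kB motif, to the C/EBP letters TTGCNNAA and to the TEAD letters GGAATG. 
Upk3b: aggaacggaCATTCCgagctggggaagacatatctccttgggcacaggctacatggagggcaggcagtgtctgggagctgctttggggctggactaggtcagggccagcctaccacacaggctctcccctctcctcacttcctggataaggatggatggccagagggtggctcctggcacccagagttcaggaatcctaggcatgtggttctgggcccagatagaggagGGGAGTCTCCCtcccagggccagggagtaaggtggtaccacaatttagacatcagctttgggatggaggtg
Saa3: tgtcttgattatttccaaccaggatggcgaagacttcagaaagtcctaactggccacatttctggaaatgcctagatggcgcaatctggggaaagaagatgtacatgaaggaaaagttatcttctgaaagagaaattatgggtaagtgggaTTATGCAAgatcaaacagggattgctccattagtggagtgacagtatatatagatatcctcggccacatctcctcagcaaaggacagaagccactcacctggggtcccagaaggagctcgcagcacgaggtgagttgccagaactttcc
Cxcl1: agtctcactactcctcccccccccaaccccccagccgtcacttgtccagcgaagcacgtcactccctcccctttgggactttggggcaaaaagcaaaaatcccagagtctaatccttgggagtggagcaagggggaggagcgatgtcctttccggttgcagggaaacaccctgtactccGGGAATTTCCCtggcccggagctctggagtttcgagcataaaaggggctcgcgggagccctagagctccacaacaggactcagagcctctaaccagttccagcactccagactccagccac
C3: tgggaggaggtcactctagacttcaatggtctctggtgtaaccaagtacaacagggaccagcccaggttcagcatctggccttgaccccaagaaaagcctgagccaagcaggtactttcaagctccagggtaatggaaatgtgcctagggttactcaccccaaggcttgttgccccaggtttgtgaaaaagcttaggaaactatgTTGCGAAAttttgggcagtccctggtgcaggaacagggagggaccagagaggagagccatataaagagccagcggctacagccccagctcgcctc
The Upk3b and Cxcl1 windows each held an NF-kB match on both strands at overlapping positions, and the Upk3b window also held a TEAD match. The Saa3 and C3 windows each held 1 C/EBP match. Over 32851 RefSeq promoters of this length, 8.46% held the NF-kB motif, 10.8% the C/EBP letters and 14.7% the TEAD letters. A match is a description of the letters and shows no binding.

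Per cell, C3, Slpi and Saa3 were detected in most of the mesothelial cells. The mesothelial cells had a median of 19166 UMIs and 4476 genes, against 14275 UMIs in the stellate cells and 5774 in the immune cells of the library. C3 had a median of 157 UMIs per cell (10th to 90th percentile 53 to 337) and Slpi, a secreted protease inhibitor, a median of 106 (3 to 434.8). Saa3, an acute-phase apolipoprotein, had a median of 265.5 UMIs per cell (10 to 1038). After thinning every cell to 2000 UMIs, which removes differences in depth, a Saa3 UMI was expected in 93.4% of mesothelial cells, against 31.4% of immune, 20.8% of endothelial and 16.7% of stellate cells of the same library (98.7%, 59.5%, 63.4% and 63.7% without thinning). For C3 the thinned shares were 99.1%, 29.6%, 16.4% and 23.9%. The endothelial shares are over 677 cells with at least 4 UMIs of Pecam1 and Cdh5 together and none of Ptprc or Epcam. Of these, 188 held 2 or more stellate marker UMIs. In the mesothelial cells, the thinned shares were lower for Krt19 (39.1%, 76.8% without thinning) and Igfbp5 (33.3%, 61.3% without thinning). Transcripts free in the suspension give UMIs in cells that do not express a gene, so shares at the level of the immune or endothelial cells were not read as expression.

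**Figure D1:**
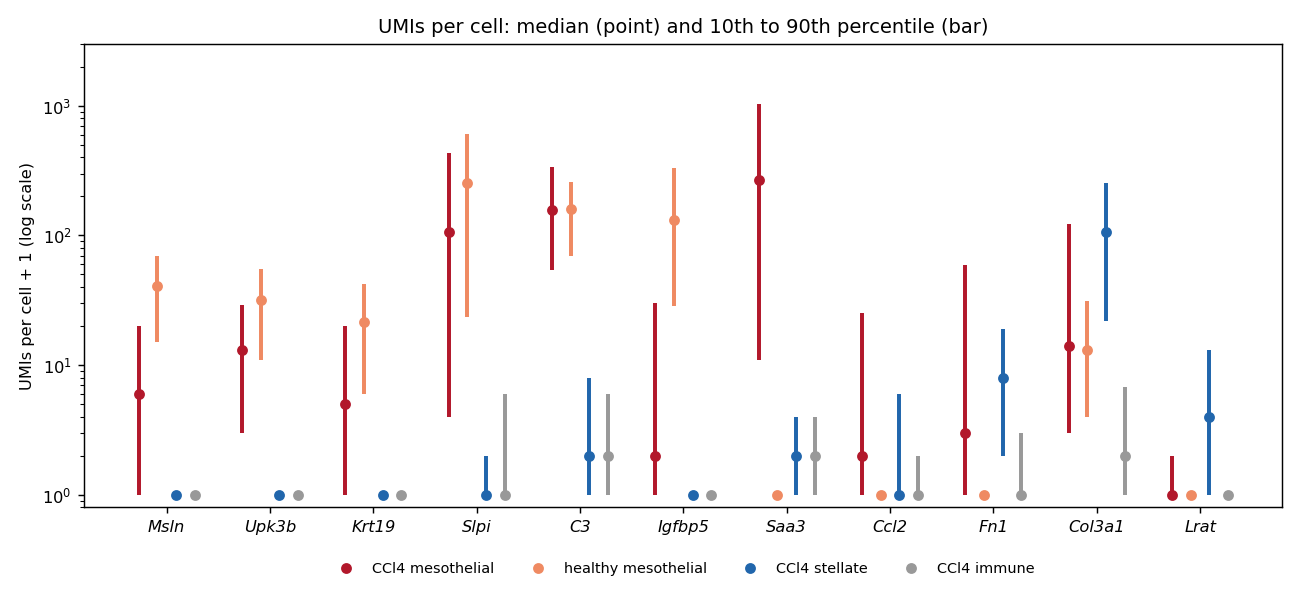
UMIs per cell plus 1 on a log scale for chosen genes, with a point for the median and a bar from the 10th to the 90th percentile of cells, in the mesothelial, stellate and immune cells of the CCl4 library and the mesothelial cells of the healthy library. Saa3 had a median of 265.5 UMIs in the CCl4 mesothelial cells and 0 in the healthy ones, while C3 had medians of 157 and 158.

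The first comparison asked how the mesothelial cells differed from the stellate cells of the same library, a main collagen-expressing population of this liver. A further such population, 306 fibroblasts chosen by Dpt, Cd34, Clec3b and Pi16, held 2744 CPM of Col1a1 and 2155 CPM of Fn1 and was not compared gene by gene. UMIs were summed over the cells of each population, and a gene was counted as higher or lower at a CPM ratio of 2 or more or of 0.5 or less, among genes with at least 10 CPM in the higher population. There was 1 library per group, which leaves no replicates to test, and each interval below is an exact 95% interval for counting error only. Of 9189 genes compared, 974 were higher in the mesothelial cells (10.6%) and 1117 were lower (12.2%), with a median log2 ratio of 0.02. The genes of the selections are no finding, and where they appear below they are descriptions only.

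Keratins and surface genes stood far above the stellate level. Lgals2, a sugar-binding galectin, was at 130 CPM in the mesothelial and 0.286 CPM in the stellate cells, a ratio of 453 (259 to 878). Krt7, a keratin of simple epithelia, was at 292 and 0.715 CPM (409-fold, 286 to 606). Muc16, the large surface mucin known as CA125, was at 165 and 0.692 CPM (239-fold, 166 to 357). Prg4, the lubricant lubricin, was at 398 and 1.67 CPM (239-fold, 189 to 306). The tight-junction claudin Cldn3 was 213-fold higher (148 to 318) and the endocytic receptor Lrp2 210-fold (120 to 407). Others of the 15 largest ratios were Prr15, Vnn1, Tm4sf5, Chil1, Sema3c, Krt19, Prr15l, Gpm6a and Cpe, at 205-fold to 319-fold.

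By group, 18 of 19 further mesothelial genes were higher and none was lower, with a median log2 ratio of 7.03. Of 11 keratin and surface-coat genes compared, 9 were higher and none lower (median 7.02). The 16 junction and polarity genes compared gave 12 higher and 2 lower (median 3.05). Ezr, which ties the membrane of microvilli to actin, was at 579 CPM against 13.6 CPM (42.5-fold, 39.1 to 46.3), and Dsg2, a desmosomal cadherin, at 96.1 CPM against 0.882 CPM (109-fold, 78.8 to 155). The 2 lower ones were Cdh2 (N-cadherin), 6.58-fold lower (6.15 to 7.05), and Jup (plakoglobin), 3.4-fold lower (3.17 to 3.64). Cdh1, the E-cadherin of most epithelia, was at 0.618 CPM and too low to compare.

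Transcription factors of the mesothelium and the mesenchyme split between the populations. Of 16 compared, 7 were higher and 8 lower in the mesothelial cells. Wt1 was at 302 CPM against 73.5 CPM (4.11-fold, 3.94 to 4.28), Gata6 at 342 against 144 CPM (2.38-fold, 2.3 to 2.46) and Osr1 at 315 against 2.62 CPM (120-fold, 99.5 to 146). Those lower included Tcf21 (18.6-fold, 17 to 20.2), Lhx2 (19.6-fold, 17.1 to 22.5), Hand2 (6.29-fold, 5.97 to 6.63) and Nr2f2 (4.82-fold, 4.61 to 5.04), all known from stellate cells. Wt1 was thus present in both populations, at a higher level in the mesothelial cells.

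Innate defence genes were higher in the mesothelial cells. Of 12 complement genes compared, 8 were higher and none lower (median log2 ratio 1.67), and of 7 acute-phase and defence genes 6 were higher and none lower (median 5.23). C3 was at 8751 CPM against 200 CPM (43.7-fold, 42.7 to 44.6) and Cfb, which forms the alternative-pathway convertase with it, at 889 against 35.9 CPM (24.8-fold, 23.5 to 26.1). Saa3 was at 20674 CPM against 223 CPM (92.5-fold, 90.6 to 94.4), and Lcn2, an iron-withholding lipocalin, at 281 against 7.51 CPM (37.4-fold, 33.4 to 42). Slpi was at 8487 against 41.9 CPM (203-fold, 193 to 213). Clu (clusterin), a complement inhibitor, was 9.33-fold higher (9.05 to 9.62) and the complement-decay factor Cd55 7.56-fold (7.14 to 8).

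Chemokines and growth factors were divided by member. Of 17 chemokine and cytokine genes compared, 8 were higher and 6 lower. Il18, a cytokine of epithelial and myeloid cells, was at 132 CPM against 1.1 CPM (120-fold, 90.1 to 165), and the B-cell attractant Cxcl13 at 249 against 16.6 CPM (15-fold, 13.8 to 16.2). Ccl2, which recruits monocytes, was at 431 against 139 CPM (3.11-fold, 3.01 to 3.21). Cxcl12 was lower, at 179 against 2235 CPM (12.5-fold, 12.1 to 12.9). Among 29 growth factors compared, 7 were higher and 10 lower. The ligand Fgf9 was at 35.9 CPM and had only 2 UMIs in the stellate cells, a ratio of 752 (208 to 6219), and Rspo1, which amplifies Wnt signals, was at 244 against 1.34 CPM (183-fold, 140 to 242). The stellate growth factors Hgf (20.2-fold, 18.6 to 21.9), Bmp5 (19.4-fold, 17.2 to 22) and Rspo3 (18.1-fold, 16.7 to 19.7) were lower, while Gas6, the ligand of Axl, was 3.81-fold higher (3.72 to 3.9).

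Insulin-like growth factor binding proteins and retinoid enzymes showed the same division. Igfbp6 was at 1121 CPM against 16.8 CPM (66.6-fold, 61.8 to 71.9) and Igfbp5 at 499 against 4.72 CPM (106-fold, 91.8 to 122), whereas Igfbp3 (3.24-fold, 3.12 to 3.36) and Igfbp7 (3.74-fold, 3.71 to 3.77) were lower. Of 10 retinoid genes compared, 4 were higher and 5 lower. Aldh1a1, which makes retinoic acid, was at 561 against 138 CPM (4.08-fold, 3.95 to 4.2). Interferon-response genes were lower as a list, with 1 of 14 higher (Oasl2, 2.09-fold, 1.98 to 2.2) and 10 lower (median −1.62), among them Ifit3 (13.4-fold, 11.7 to 15.4) and Ifi27l2a (7.83-fold, 7.66 to 8).

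**Figure D2:**
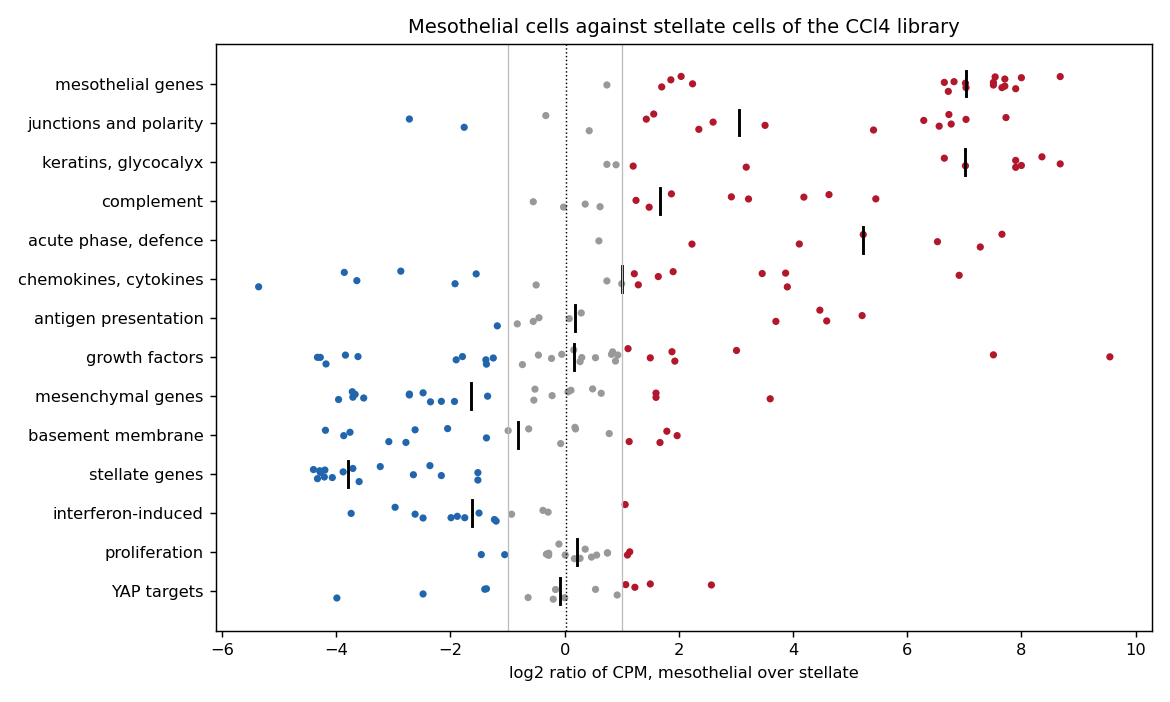
Log2 CPM ratio of CCl4 mesothelial to stellate cells for the compared genes of each list, with 1 point per gene (red at least 2-fold higher, blue at least 2-fold lower, grey neither, 0 UMIs taken as 3), a black tick at the list's median, grey lines at the limits and a dotted line at the median of all genes. The further mesothelial genes had a median of 7.03 and the further stellate genes one of −3.80, and the genes of the mesenchymal list lay on both sides of 0.

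All 16 further stellate genes compared were lower in the mesothelial cells (median −3.80). The genes lowest by ratio included the endothelin receptors Ednrb (16.8 against 411 CPM, 24.5-fold, 22.3 to 27) and Ednra (24.4-fold, 20.7 to 29), Nr1h5, Art4, Vipr1, Robo2, Cped1, Hgf, Abcc9, Colec10, Lhx2, Bmp5 and G0s2. Haemoglobin transcripts, made by red cells, were lower too, with Hba-a1 at 3.74 against 104 CPM. Of 22 genes of the mesenchymal list compared, 3 were higher, 12 were lower and 7 were neither (median −1.64).

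The stellate genes in the mesothelial cells fell into distinct levels when each was expressed as a percentage of its stellate level. The 4 stellate markers stood at 5.17% (4.99 to 5.35), Hgf at 4.96%, Tcf21 at 5.39%, Lhx2 at 5.11% and Bmp5 at 5.15%. Without the 181 cells with stellate UMIs the markers stood at 0.59% (0.526 to 0.66), where the removal itself sets the value, and Hgf, Tcf21, Lhx2 and Bmp5, which it did not use, at 0.993% to 1.29%. Periostin (Postn), the receptor Pdgfrb, lumican (Lum) and Cxcl12 went from 6.43%, 7.64%, 8.3% and 8.01% to 2.68%, 3.58%, 4.18% and 3.86%.

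Fibrillar collagens and matrix genes did not move in this way. Col1a1 was at 845 CPM, 19.6% of the stellate level, and at 15.5% without those 181 cells. Col3a1 was at 1899 CPM, 22.3% and 19.4%, and Sparc, a collagen-binding matrix protein, at 4013 CPM, 39.4% and 36.2%. The smooth-muscle actin Acta2 was at 26.2% and 23.5%, and the basement-membrane collagen Col4a1 at 16.3% and 12.1%. These levels were several times those of the stellate markers in the same cells.

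A further set of mesenchymal genes reached the stellate level when summed over all cells. Fn1 (fibronectin) was at 928 CPM against 597 CPM, 156% (153 to 158) of the stellate level and 161% without the 181 cells. This sum rested on few cells, as 148 cells held 16250 of its 24028 UMIs and 788 cells stood at 73.4 CPM. By cells the order was the opposite, since a Fn1 UMI was expected in 39.2% of mesothelial and 60.5% of stellate cells after thinning (70.8% and 91.6% without thinning). The receptor Pdgfra was at 104% and 106%, and the collagen cross-linking enzymes Lox and Loxl1 at 140% and 108% (145% and 106% without those cells). Timp1, an inhibitor of matrix proteases, was at 620 against 137 CPM, 454% (440 to 468). It too was unevenly held, as 10% of the cells had 67.1% of its UMIs and the median cell had 4. The 788 cells low in Fn1 stood at 332 CPM of Timp1. S100a4, long used as a fibroblast marker, was at 236 against 19.5 CPM (12.1-fold, 11.2 to 13), and Twist1, a transcription factor of mesenchymal transition, at 39.9 against 13.2 CPM (3.03-fold, 2.73 to 3.36). Zeb2 (6.6-fold, 6.34 to 6.87), Snai2 (11.5-fold, 9.86 to 13.5) and Snai1 (5.56-fold, 4.83 to 6.43), factors of the same class, were lower. In the shallower immune cells, which are not known as a source of fibrillar collagen, Col1a1 was still at 645 CPM and Col3a1 at 1174 CPM. The same immune cells held the 4 stellate markers at 283 CPM, and 31 of the 343 had 2 or more of their UMIs. The part of such mixed droplets in the immune values was not tested. After thinning, a Col1a1 UMI was expected in 61.1% of mesothelial and 30.7% of immune cells (97.4% and 53.4% without thinning) and a Col3a1 UMI in 71.4% and 41.7% (97.4% and 68.8%), and the part of free transcripts in the mesothelial collagen values was not tested.

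Basement-membrane genes differed by chain. Of 18 compared, 4 were higher and 8 lower. The laminin chains Lama5 (41.1 against 12.9 CPM, 3.18-fold, 2.86 to 3.53) and Lama4 (3.93-fold, 3.48 to 4.44) and the collagens Col4a6 and Col18a1 were higher. Col4a1 and Col4a2, Lama2, Lama1, Lamb1, Lamc1, Nid1 and Col15a1 were lower, by 2.59-fold (Lamc1) to 18.2-fold (Lama2).

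Further lists gave these counts. Immediate-early genes gave 7 of 17 higher and none lower (median 0.67), led by Atf3 (537 against 118 CPM, 4.55-fold, 4.4 to 4.7). Antigen-presentation genes gave 4 of 10 higher and 1 lower. The 4 were Cd74 (630 against 17.1 CPM, 36.9-fold, 34.2 to 39.8), H2-Ab1, H2-Aa and H2-Eb1, all of class II. Antioxidant genes gave 4 of 14 higher and 3 lower, YAP target genes 4 of 14 each way, fibrinolysis genes 4 and 3 of 12, matrix proteases and their inhibitors 1 (Timp1) and 5 of 12, cell-cycle genes 2 and 2 of 16, and cell-cycle inhibitors 0 and 2 of 10.

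The second comparison set the CCl4 mesothelial cells against the 228 healthy mesothelial cells chosen by the same rule, over the 30406 genes listed in both libraries. Median depth was close, at 19166 and 18290 UMIs, but injury, animals, library and processing cannot be told apart, since each condition was 1 library and the matrices were written by different versions of the counting software (6.0.1 for CCl4 and 3.1.0 for healthy). Of 9152 genes compared, 917 were higher in the CCl4 cells (10.0%) and 1221 were lower (13.3%), with a median log2 ratio of −0.08. Higher genes were 42.9% of those past the limits. They were 63%, with a median of 0.29, after subtracting from each cell the mean profile of an immune cell (CCl4) or an endothelial cell (healthy). Those profiles held 7586 and 6848 UMIs, against means of 20688 and 16701 UMIs per mesothelial cell. They include the reference cells' own transcripts, so they are no estimate of free transcripts alone. Some of the gene differences ran through the whole libraries. Rnasek and Atp6v0c, at 213 and 293 CPM in the CCl4 mesothelial cells, had 35 and 39 UMIs in all 6297 healthy cells, and Ptp4a1, at 52.3 CPM in the healthy mesothelial cells, had 158 UMIs in all CCl4 cells. The endothelial cells of both libraries, 489 of CCl4 with fewer than 2 stellate marker UMIs and 2788 of healthy, served as a reference. Of the 917 genes, 631 could be compared there and 210 (33.3%) were higher in CCl4 endothelial cells as well, against 5.17% of all genes, and of 757 lower genes compared, 246 (32.5%) were lower in both, against 12% of all genes.

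Acute-phase and defence genes held the largest ratio. Saa3 had 535491 UMIs in the CCl4 mesothelial cells (20745 CPM of the shared genes) and 0 in the healthy ones, at least 26319-fold higher against 3 counts. The whole CCl4 library held 767841 Saa3 UMIs and the whole healthy library 190. In the endothelial reference Saa3 stood at 812 and 0.944 CPM, and the part of free transcripts in these values was not tested. Lcn2 was at 282 against 6.57 CPM (42.9-fold, 29.1 to 66.4), haptoglobin (Hp) at 404 against 33.9 CPM (11.9-fold, 10 to 14.3) and ceruloplasmin (Cp) at 460 against 9.98 CPM (46.1-fold, 33.5 to 65.1). In all 4 of 8 genes were higher and 3 lower, the lower ones being Slpi, Orm1 and the secreted Wfdc2 (26 against 319 CPM, 12.3-fold, 11.2 to 13.5). Slpi was at 8516 against 17927 CPM, 2.11-fold lower (2.09 to 2.12), a ratio that passed below 2 in 5 of the alternative settings.

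Complement stayed close to the healthy level. Of 12 genes compared, 3 were higher and 1 lower (median −0.14). C3 was at 8782 against 9905 CPM, 1.13-fold lower (1.12 to 1.14). Cfb was at 892 against 166 CPM (5.37-fold higher, 4.97 to 5.83), Cfi at 39.2 against 4.73 CPM (8.3-fold, 5.22 to 14.1) and Cd55 at 269 against 131 CPM (2.06-fold, 1.88 to 2.26), while C2 was 5.18-fold lower (4.96 to 5.41).

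Chemokines and cytokines were mostly higher, with 11 of 14 genes higher and 1 lower (median log2 ratio 4.44). Ccl2 was at 433 CPM and had 3 UMIs in the healthy cells, a ratio of 549 (188 to 2662). The neutrophil attractants Cxcl1 (418 against 3.94 CPM, 106-fold, 64.3 to 190), Cxcl2 (36.3 CPM, at least 46.1-fold against 3 counts for 0 UMIs) and Cxcl5 (179 CPM, at least 227-fold) were higher. The list went on with Ccl7 (at least 108-fold), Cxcl13 (250 against 1.31 CPM, 190-fold, 81.4 to 586), Cxcl10 (8.89-fold, 7.03 to 11.4), Cxcl12, Cxcl14, Cxcl16 and Il34. Csf1, the macrophage growth factor, was lower, at 92.9 against 229 CPM (2.46-fold, 2.28 to 2.66). Per cell the chemokines were unevenly held, with a median of 1 Ccl2 UMI and a 90th percentile of 24, and a thinned share of 30.1% for Ccl2 against 7.18% in immune and 10.2% in endothelial cells of the library. Cxcl5 had a UMI in 24.2% of the mesothelial cells (10.8% thinned, against 1.16% of immune and 0.898% of endothelial cells). These endothelial shares are over all 677 endothelial cells of the library, including those with stellate UMIs. In the endothelial reference, which leaves those out of the CCl4 library, Ccl2 was at 61.5 CPM in the CCl4 and 3.93 CPM in the healthy library.

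Mesenchymal genes were mostly higher than in healthy mesothelium, with 13 of 21 higher and 2 lower (median log2 ratio 2). Without the 181 CCl4 and 26 healthy cells with stellate UMIs, 12 were higher. Fn1 was at 931 CPM against 4.73 CPM (197-fold, 125 to 332). Pdgfra was at 255 against 1.31 CPM (194-fold, 83.1 to 598), and Zeb2 at 102 CPM against 0 UMIs (at least 129-fold). Endothelial cells, which express Zeb2, held it at 247 CPM in the CCl4 and 285 CPM in the healthy library, so it was measured in both. Col1a1 was at 847 against 112 CPM (7.55-fold, 6.86 to 8.33) and Lox at 147 against 24.4 CPM (6-fold, 4.88 to 7.45). Col3a1 (2.18-fold, 2.1 to 2.25) and Sparc (2.14-fold, 2.09 to 2.2) were just past the limit and passed below 2 in 5 and 2 of the alternative settings. The endothelial reference held 66.2 CPM of Fn1 and 156 CPM of Col1a1 in the CCl4 library against 8.18 and 1.47 CPM in the healthy one, and the part of free transcripts in the mesothelial difference was not tested. Vim, already high in healthy mesothelium, was lower, at 1770 against 4645 CPM (2.62-fold, 2.58 to 2.67), and so was S100a6 (2.25-fold, 2.22 to 2.29).

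The stellate list must be read with the droplets in mind. Of 12 further stellate genes compared, 7 were higher in the CCl4 mesothelial cells and 2 lower. Without the 181 CCl4 and 26 healthy cells with stellate UMIs, 2 were higher. Among basement-membrane genes 5 of 17 were higher (Col4a1 at 274 against 53.6 CPM, 5.11-fold, 4.45 to 5.9, Col4a2, Lamb1, Nid2 and Hspg2) and 7 lower, including Col4a4 (8.52 against 179 CPM, 21-fold, 18 to 24.5), Col4a3 (15.9-fold, 11.1 to 23.1) and Lama5 (2.53-fold, 2.25 to 2.84). The chains of collagen IV thus differed in opposite directions.

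**Figure D3:**
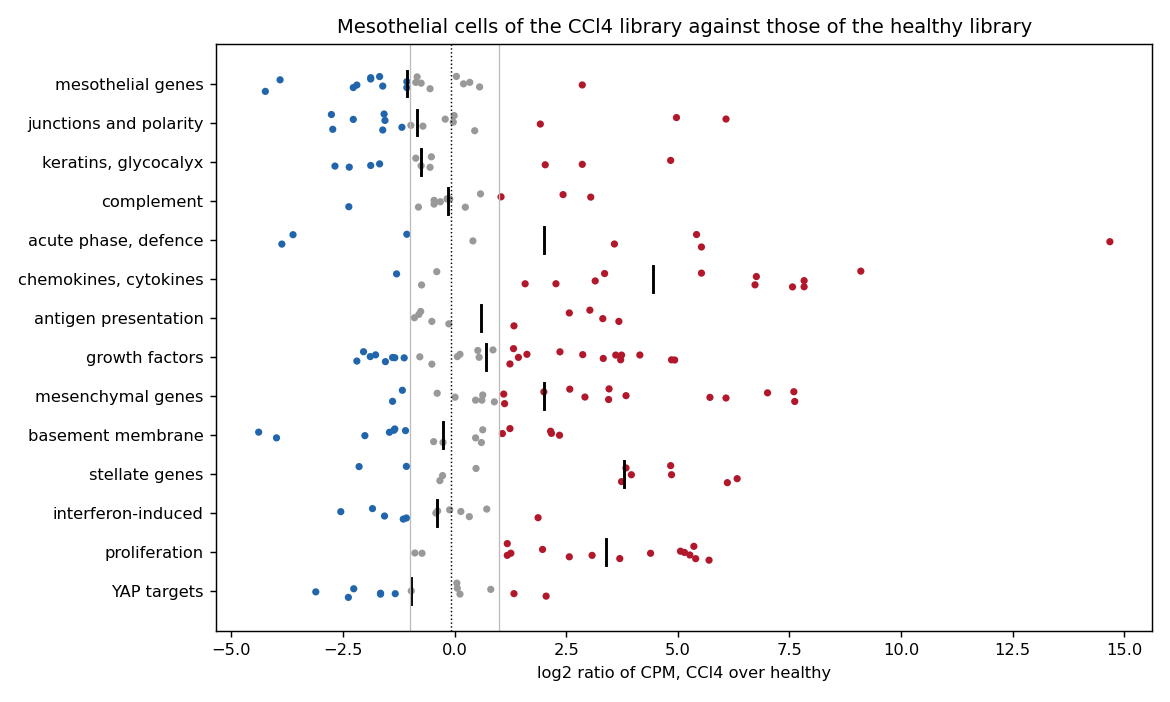
Log2 CPM ratio of CCl4 to healthy mesothelial cells for the compared genes of each list, with points, ticks and lines drawn and coloured as in the plot against stellate cells. The chemokine list had a median of 4.44 and the cell-cycle list one of 3.39, while the further mesothelial genes had a median of −1.07.

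Genes of mesothelial identity were lower in the CCl4 cells, with 10 of 19 further mesothelial genes lower and 1 higher (Podxl, 15.3 against 2.1 CPM). The selection markers are given as a description only: Msln was at 410 against 2486 CPM, Upk3b at 678 against 1964 CPM, Upk1b at 256 against 651 CPM and Lrrn4 at 332 against 494 CPM. A cell of either library needed 4 of their UMIs in all, and the median cell held 31 in the CCl4 and 91.5 in the healthy library. Igfbp5 was at 501 against 9465 CPM (18.9-fold lower, 18.5 to 19.3) and Efemp1, a fibulin of elastic fibres, at 285 against 4270 CPM (15-fold, 14.6 to 15.4). Cldn15 (4.83-fold, 4.6 to 5.07), Rspo1 (4.56-fold, 4.38 to 4.74), Gpm6a (3.67-fold, 3.56 to 3.78), Krt19 (3.69-fold, 3.56 to 3.82) and Krt7 (3.21-fold, 3.08 to 3.34) were lower as well. Wt1 was not, at 303 against 294 CPM (ratio 1.03, 0.966 to 1.1), and Muc16, Bnc1, Krt8, Krt18 and Pkhd1l1 passed neither limit.

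Epithelial structure showed both directions. Of 16 junction and polarity genes compared, 7 were lower, including F11r (6.63-fold, 6.21 to 7.07), Cgn (6.78-fold, 5.88 to 7.82) and Ezr (581 against 1780 CPM, 3.06-fold, 2.97 to 3.15), and 3 were higher. Cldn3 was among the higher ones, at 148 against 4.73 CPM (31.2-fold, 19.7 to 52.8), with Dsg2 (3.78-fold, 3.09 to 4.68) and Cdh2 (35.6 CPM against 2 UMIs, 67.8-fold, 18.7 to 560). Of 11 keratin and surface genes, 3 were higher and 4 lower. Prg4 was at 400 against 13.9 CPM (28.7-fold, 21.9 to 38.3) and the hyaluronan receptor Cd44 4.08-fold higher (3.23 to 5.23), while the water channel Aqp1 (6.43-fold, 6.16 to 6.71) and the hyaluronan synthase Has1 (5.13-fold, 4.43 to 5.94) were lower.

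Among transcription factors, 2 of 15 were higher and 3 lower. Osr1 was at 316 against 2.36 CPM (134-fold, 70.4 to 292). Tcf21 was the other higher one, with 1 healthy UMI (80.4-fold, 14.4 to 3180), and it was at 5.39% of its stellate level with and 1.03% without the 181 cells with stellate UMIs. Foxc1, Foxf1 and Meis1 were lower, and Gata4, Gata5, Gata6, Bnc1, Hand2, Tbx20 and Klf4 passed neither limit.

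Growth-factor genes gave 13 of 28 higher and 8 lower (median 0.70), counted with the cells with stellate UMIs included. The 13 held the stellate growth factors Hgf, Bmp5 and Rspo3. Without the cells with stellate UMIs, Hgf in the CCl4 mesothelial cells went from 4.96% to 1.29% of its stellate level. Bmp5 went from 5.15% to 1.15%. Mdk (midkine) was at 112 against 3.68 CPM (30.6-fold, 18.2 to 56), the lymphatic growth factor Vegfc at 112 against 9.2 CPM (12.2-fold, 8.75 to 17.5) and Igf1 at 63.6 against 6.31 CPM (10.1-fold, 6.75 to 15.8). Wnt5a (2.69-fold, 2.36 to 3.07) and Wnt4 (2.49-fold, 2.22 to 2.81) were higher. Tgfb2 (78.2 against 290 CPM, 3.71-fold, 3.44 to 3.99), Tgfb3 (2.62-fold, 2.36 to 2.91), Fgf18 (4.11-fold, 3.61 to 4.67), Pdgfa (3.41-fold, 3.09 to 3.76), Bmp4 (2.93-fold, 2.69 to 3.19) and Gas6 (2.53-fold, 2.47 to 2.59) were lower, with Fgf9 and Rspo1. Tgfb1 passed neither limit. Binding proteins for insulin-like growth factors crossed over, with Igfbp3 at 130 against 1.31 CPM (98.7-fold higher, 42.2 to 304), Igfbp4 3.31-fold higher (3.07 to 3.57), and Igfbp5 and Igfbp6 (1125 against 6514 CPM, 5.79-fold, 5.69 to 5.89) lower.

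Genes of proteolysis and coagulation included Serpinb2, an inhibitor of plasminogen activators, at 124 CPM against 0 UMIs (at least 157-fold). Tissue factor (F3), which starts coagulation, was lower, at 33.8 against 292 CPM (8.65-fold, 7.91 to 9.46). Timp1 was at 622 against 168 CPM (3.7-fold, 3.42 to 4.02) and Timp2 2.08-fold lower (2.03 to 2.12), and the list of matrix proteases and inhibitors gave 6 of 10 higher and 2 lower. Class II antigen-presentation genes were higher, with Cd74 at 632 against 77.2 CPM (8.18-fold, 7.29 to 9.22) and H2-Ab1 at 134 against 13.4 CPM (10-fold, 7.6 to 13.5), and 5 of 10 genes of the list were higher and none lower. Cd74 and H2-Ab1 turned lower when the reference-cell profile was subtracted, which in the CCl4 library came from immune cells, known to express both. Interferon-response genes gave 1 of 12 higher and 5 lower, antioxidant genes 6 of 14 higher and 1 lower, YAP target genes 2 of 13 higher and 6 lower, and immediate-early genes 7 of 17 higher and 1 lower. Retinoid genes gave 2 of 10 higher and 3 lower, one of the latter being the chemoattractant precursor Rarres2 (700 against 4650 CPM, 6.65-fold, 6.51 to 6.79). Fibrinolysis genes gave 4 of 11 higher and 2 lower, and cell-cycle inhibitors 1 of 10 each way.

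Further genes were among those with the largest ratios in either direction. Lum, a collagen-binding proteoglycan, was at 137 CPM and had 1 healthy UMI (522-fold, 93.6 to 20628). On the log2 scale its ratio was 9.03 with and 7.81 without the 181 CCl4 and 26 healthy cells with stellate UMIs. The endothelial reference held Lum at 53.8 against 0.629 CPM. Ltbp2, which binds latent growth factors in the matrix, was at 201 CPM against 0 UMIs (at least 255-fold). Mylk, the myosin light-chain kinase, was at 300 CPM and had 3 healthy UMIs (380-fold, 130 to 1844). Chil1, a chitinase-like secreted protein, was at 169 CPM and had 2 healthy UMIs (322-fold, 89.1 to 2659). Lgi2, Slit3, Tgfbi, Cxcl12, Lpl and Hist1h2ap had 1 to 3 healthy UMIs each. Without the cells with stellate UMIs of both libraries, the log2 ratio of Cxcl12 went from 7.83 to 7.14, that of Lpl from 7.74 to 6.57 and that of Mylk from 8.57 to 8.16. In the other direction, the anion exchanger Slc26a3 had 2 UMIs in the CCl4 cells against 123 CPM in the healthy ones (1587-fold, 437 to 13143). Myl7, the atrial myosin light chain, was at 41.6 against 2190 CPM (52.6-fold, 49.4 to 56.1), and 8335 of its 9036 UMIs in the healthy library lay in the mesothelial cells. The intermediate filament Prph was at 11.4 against 543 CPM (47.5-fold, 42.1 to 53.9). Rab17, Mup3, Ces1d, Omd, Sfmbt2, Ckmt1, Serpina3k, Tspan15, Lurap1l and Fibin were also among the 15 lowest ratios. Hepatocyte genes are among these: Mup3 had 39530 UMIs in the healthy and 489 in the CCl4 library as a whole, and of 7 hepatocyte markers compared 6 were lower in the CCl4 mesothelial cells.

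Proliferating cells were found among the CCl4 mesothelial cells. Of 16 cell-cycle genes compared, 14 were higher than in healthy mesothelium and none lower (median 3.39). The mitotic genes Mki67 (27.9 CPM, at least 35.4-fold), Top2a (32.3 CPM, at least 41-fold) and Cenpf (30.5 CPM, at least 38.7-fold) had 0 healthy UMIs. The endothelial reference differed in the same direction, with Mki67 at 28.7 against 0.105 CPM, Top2a at 43.4 against 0.734 CPM and Cenpf at 14.4 against 0.0524 CPM. Counting cells with at least 3 UMIs of Mki67, Top2a, Cdk1 and Birc5 together, 69 mesothelial cells or 5.51% (4.31 to 6.92) met the limit, against 5.55% (4.74 to 6.46) of stellate cells, and the intervals overlapped. No healthy mesothelial cell did, and 0 of 228 allows a share of up to 1.32% by a limit of 3 counts and 1.6% by the exact interval. In the endothelial reference 5.11% (3.34 to 7.45) of 489 CCl4 cells and 0 of 2788 healthy cells met the limit, which allows up to 0.108% by 3 counts. Healthy stellate cells chosen by the stellate rule did hold such cells, 3 of 150 (2%, 0.414 to 5.73). The 4 genes stood at 99.1 CPM there, against 101 CPM in the CCl4 stellate cells. After thinning to 2000 UMIs, at least 1 UMI of the 4 genes was expected in 6.34% of CCl4 mesothelial, 8.15% of stellate and 0.311% of healthy mesothelial cells (28.2%, 32.1% and 2.19% without thinning). The list rested in part on the cells richest in Fn1 described next, as 7 genes were higher without them.

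Within the 1252 mesothelial cells, variation beyond depth was measured as overdispersion, the squared spread of a gene's share of a cell's UMIs relative to its mean after counting noise is removed. Over 1327 genes at 100 CPM or more the median was 0.155. Serpinb2 had the largest value, 28.8, with a UMI in 151 cells and 99.2% of its UMIs in the 10% of cells with the most. Next came Cxcl13 (20.2), Tagln (19.4), Timp1 (17.1), Cxcl5 (10), Hp (8.04), Col6a5, Hpgd, Lpl, Acta2, Lum, Cxcl12, Nupr1, Lgals7, Hmgb2, Fabp4, Tesc, Igfbp5 (4.86), Cxcl10 and Lgals3 (4.18). Igfbp5, nearly uniform in the healthy mesothelial cells (0.261), had a median of 1 UMI and a 90th percentile of 29 in the CCl4 cells. Timp1 was likewise at 0.281 in healthy and 17.1 in CCl4 mesothelial cells. Others of the 20 varied more in the healthy cells, among them Lgals7 (19.4 against 5.38 in the CCl4 cells), Cxcl10 (15.3 against 4.5), Hp (13.8 against 8.04) and Tesc (9.71 against 4.89). In the stellate cells Serpinb2 was at 850 and Cxcl13 at 608, above the mesothelial values, while Timp1 was at 11.8, Tagln at 2.44 and Lum at 0.413. Without the 181 cells with stellate UMIs, 16 of the 20 genes remained among the 20 most variable and Tagln, Lpl, Lum and Cxcl12 did not, so the variation of those 4 went with stellate transcripts.

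**Figure D4:**
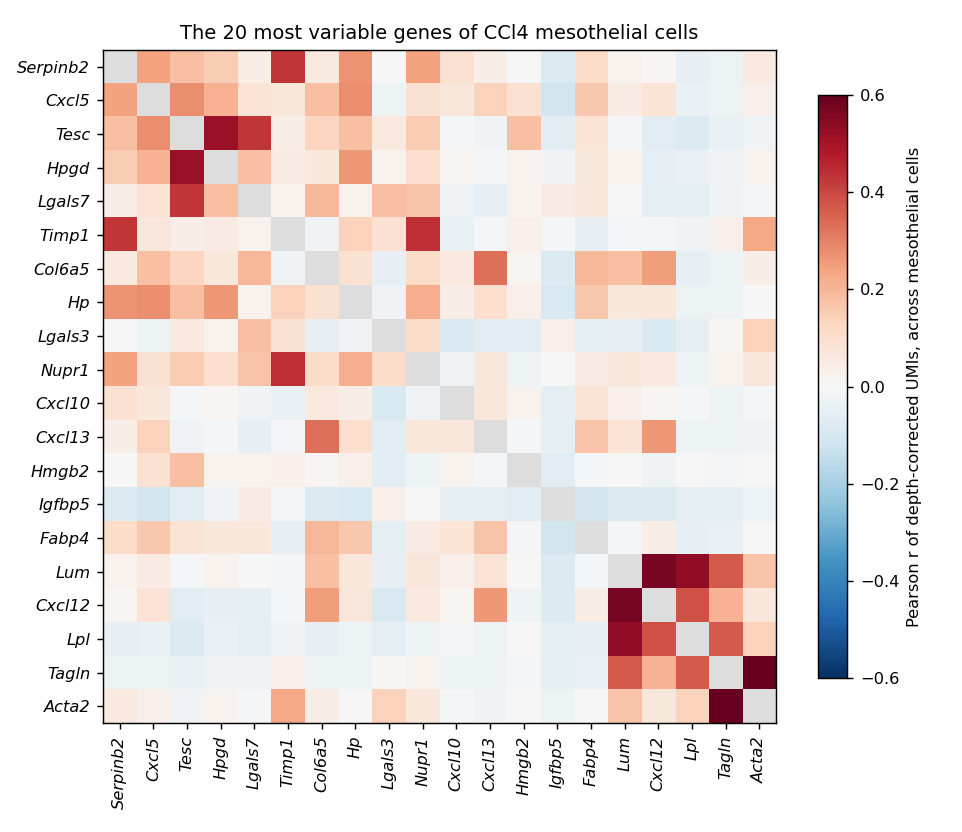
Pearson correlations of depth-corrected UMIs across the 1252 CCl4 mesothelial cells for the 20 most variable genes. Tagln and Acta2 (r = 0.61), Lum and Cxcl12 (0.57), and Hpgd and Tesc (0.52) were among the most correlated pairs, and no pair was below −0.11.

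Correlations of depth-corrected UMIs across cells of this library grouped the genes that varied together. They are given as descriptions over 1252 cells and 4291 genes at 30 CPM or more, and all cells share 1 library. Fn1 went with Cd44 (r = 0.62), the proteoglycan Vcan (0.58), the procollagen protease Bmp1 (0.57) and Col5a3 (0.56), and ran opposite to Gpm6a (−0.48), Gpc3 (−0.47), Cpe (−0.46) and Gas6 (−0.44). Ccl2 went with Ccl7 (0.61), Cxcl1 (0.53) and Nfkbia (0.41), Stmn1 with the cell-cycle genes H2afz (0.72), Hmgb2 (0.62) and Top2a (0.56), and Cd74 with H2-Ab1 (0.81), H2-Aa (0.78) and H2-Eb1 (0.75). Lum went with Dpt (0.60), Col6a3 (0.58) and Cxcl12 (0.57), again partly in the cells with stellate UMIs. Saa3 had no gene above 0.39 (Fth1).

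To show what went with Fn1, the cells were divided at 300 and 2000 CPM of Fn1, limits chosen after its values were seen. The division marks ranges of 1 gene and no cell types, and 83 cells lay near the upper limit, at 1600 to 2500 CPM. There were 788 cells (62.9%) below 300 CPM, 316 (25.2%) between the limits and 148 (11.8%) at 2000 CPM or more, with median depths of 17377, 21489 and 26913 UMIs. The stellate markers of the selection stood at 92.4, 259 and 33.4 CPM in these ranges and were thus lowest in the top range. Other stellate genes were divided. Hgf was at 18.7, 40.1 and 7.84 CPM and Tcf21 at 15.3, 39.8 and 8.99 CPM. Des was at 18.7, 64.2 and 156 CPM and Lum at 83.7, 242 and 136 CPM, both higher in the top than in the low range. Several fibroblast markers were higher with Fn1, among them Fbln2 at 51.9, 173 and 292 CPM, Cd34 at 71.1, 178 and 268 CPM and Eln at 104, 172 and 226 CPM, while Dpt was at 26.8, 50.3 and 27 CPM and Entpd2 at 44.3, 38.1 and 28.6 CPM. The part of fibroblast and stellate transcripts in what follows was not tested.

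Several mesothelial genes were lowest where Fn1 was highest. From the low to the high range Krt7 was at 400, 211 and 74 CPM, Krt18 at 326, 152 and 39.4 CPM and Gpm6a at 681, 289 and 99.8 CPM. The selection gene Msln, given as a description only, was at 576, 273 and 82.7 CPM. The lubricant Prg4 went from 595 to 61.1 CPM, C4b from 1046 to 100 CPM and Gas6 from 1310 to 178 CPM. C3 and Slpi were also lower at the top, from 11660 to 3907 and from 11204 to 3984 CPM. Not all genes of the mesothelial list fell. Nkain4 was at 418, 579 and 640 CPM and Aldh1a2 at 71.7, 106 and 155 CPM from the low to the high range. Pkhd1l1 was at 204, 188 and 180 CPM.

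Matrix, protease-inhibitor and cell-cycle genes ran the other way. Col3a1 was at 828, 2976 and 3653 CPM and Col1a1 at 485, 1234 and 1385 CPM. Cd44 was at 15.4, 98.3 and 252 CPM, Timp1 at 332, 485 and 1796 CPM, and S100a4 at 112, 293 and 546 CPM. Serpinb2 was at 3, 120 and 526 CPM, Cxcl5 at 13.9, 260 and 588 CPM and Hp at 95.5, 634 and 1034 CPM. The share of cells with at least 3 UMIs of the 4 cell-cycle genes was 0.888% (0.358 to 1.82), 10.4% (7.3 to 14.4) and 19.6% (13.5 to 26.9), and depth, which also raises this share, was higher in the same order.

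Other genes kept a similar level in the 3 ranges. Wt1 was at 319, 286 and 270 CPM, Gata6 at 351, 335 and 327 CPM, Loxl1 at 284, 285 and 248 CPM, and Saa3 at 22689, 18785 and 17151 CPM. Pdgfra was at 224, 278 and 312 CPM. Wt1, Saa3 and Pdgfra were therefore present in the cells richest in mesothelial genes as well as in those richest in Fn1.

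**Figure D5:**
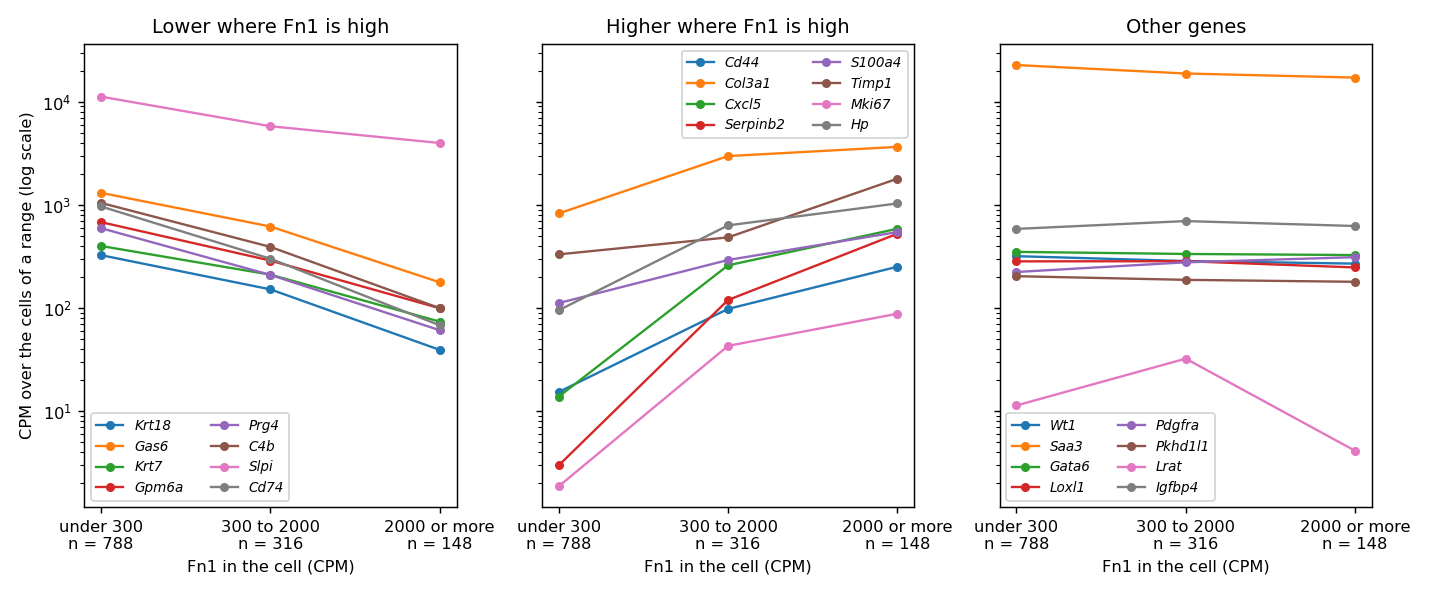
CPM on a log scale over the CCl4 mesothelial cells of 3 ranges of Fn1 (788, 316 and 148 cells), in panels of genes lower where Fn1 is high, higher where Fn1 is high, and others. Krt7 went from 400 to 74 CPM and Serpinb2 from 3 to 526 CPM across the ranges, while Wt1 lay between 270 and 319 CPM.

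Class II antigen-presentation genes marked the opposite end. Divided at 200 and 2000 CPM of Cd74, limits again chosen after its values were seen, 617, 491 and 144 cells lay in the low, middle and high range, 103 of them at 1600 to 2500 CPM. The high range held 15820 CPM of C3 and 79.6 CPM of Fn1, and the low range 5908 and 1500 CPM. Prg4 was at 899 and 214 CPM in the high and low range and Gpm6a at 745 and 331 CPM, while Wt1 was at 338 and 290 CPM. Cycling cells made up 8.91% (6.79 to 11.4) of the low, 2.85% (1.57 to 4.74) of the middle and 0 of 144 cells of the high range. The immune marker Tyrobp was at 1.4, 1.33 and 0.78 CPM in these ranges and Coro1a at 0.511 CPM or less, while Ptprc was 0 by the selection.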

How the data were processed

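Single-cell 3′ RNA was measured in 1 CCl4 and 1 healthy library. Per the file headers, the authors deposited UMI counts per gene and cell, unnormalized, written by software versions 6.0.1 (CCl4) and 3.1.0 (healthy). The healthy and CCl4 libraries held 51122846 and 97611831 UMIs, and no cell had fewer than 500. How the aligner was run is not given in the sources used here. Samples were grouped by GEO's labels.

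Counts were summed over the cells of each population and divided by their total (CPM). As each group was 1 library, nothing was tested. Ratios have exact conditional binomial, levels exact Poisson and shares exact Clopper-Pearson 95% intervals, which cover counting error only, and a count of 0 stands at 3 counts. Thinned shares are the expected share of cells with a UMI at 2000 UMIs. No doublet caller was run. The named genes were the 15 largest and 15 smallest ratios at 50 CPM or more in the higher population, without mitochondrial, ribosomal, predicted and sex-linked genes, the 20 most variable genes at 100 CPM or more, and examples from each list with the highest CPM or largest ratio. A few genes the rule names are not reported here. Ranges of Fn1 and Cd74, and other genes named within them, were chosen after their values were seen. Members and lists were chosen with earlier results of these data known. Steps were tested on simulated data. Alternatives covered selection limits, scaling by TMM, filters, subtraction of a reference-cell profile and thinning. Python 3.11.15, numpy 2.4.6, scipy 1.17.1, pandas 2.3.3, R 4.3.3 and edgeR 4.0.16 (TMM only) were used.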

Additional observations from a re-analysis of the deposited data

How the results depend on the processing

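The comparison of libraries rests on 1 library per condition, so intervals leave out differences between animals. Against stellate cells, 974 genes were higher and 1117 lower. Background UMIs stand for the whole mean profile of an immune cell, or in the healthy library of an endothelial cell, its own transcripts included. Higher genes were 1977 with background UMIs subtracted, and higher and lower genes were 388 and 542 with the higher CPM at least 50 and 2765 and 3175 with no filter other than 4 UMIs. Against healthy mesothelial cells, 917 were higher and 1221 lower. Higher genes were 2529 with background UMIs subtracted, and higher and lower genes were 345 and 601 at 50 CPM and 2091 and 2940 with no filter. With TMM factors the higher share of genes past the limits went from 42.9% to 51.2%. At 50 CPM, genes higher than in healthy cells went from 1 to 0 in the mesothelial list, from 13 to 8 in the mesenchymal list and from 14 to 2 in the cell-cycle list, where fewer genes were compared. Higher cell-cycle genes were 9 with every cell weighing the same and 7 without cells at 2000 CPM of Fn1 or more, and lower ones went from 0 to 1 without those cells or without cells holding 2 or more stellate marker UMIs. Lower chemokine genes went from 1 to 2 without the 50 most abundant genes or with background subtracted, and to 5 with no filter. Against healthy cells, with background subtracted, the log2 ratios of Cd74 and H2-Ab1 became −9.33 and −6.61, since the subtracted immune profile holds these genes. The share of cells with a cell-cycle UMI went from 6.34% to 4.12% thinned to 1000 UMIs, 11.4% thinned to 5000 and 28.2% unthinned. Of the 20 most variable genes, 13 remained without cells at 2000 CPM of Fn1 or more. For single genes, 889 values over 64 genes against stellate cells kept their side of the limit and 2 passed it only in an alternative. Against healthy cells 855 values over 63 genes kept it, 16 lost it, 6 gained it and 2 reversed. Where no reason is given, the cause was not tested. Leaving out cells of stellate UMIs, of high Fn1 or above 50000 UMIs was chosen after seeing the data. No paired analysis was possible because each group is 1 library.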
